A study of Arabidopsis thaliana with 2 samples.

Results

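The nuclear genes for transfer RNAs (tRNAs) and small nuclear RNAs (snRNAs) of Arabidopsis thaliana were examined for summits of IBH1 chromatin immunoprecipitation (ChIP-seq). Members were all loci of these biotypes on the 5 nuclear chromosomes of the RefSeq gene table, each counted once by locus tag. This gave 707 loci, 625 for tRNAs and 82 for snRNAs, of 37899 nuclear loci in all. A locus was said to hold a summit when a deposited summit lay inside its bounds or within 200 bp of them. ChIP was done on whole 10-day-old Col-0 seedlings with an antibody against green fluorescent protein (GFP). Seedlings of both lines were grown without treatment at 22 °C with a 16 h photoperiod. The IBH1-GFP line expresses IBH1 fused to GFP from the strong viral 35S promoter (p35S::IBH1-GFP, IBH1OE), and the GFP line expresses GFP alone from that promoter (p35S::GFP, GFP OE). Each group is 1 library, made from pooled DNA of 3 ChIP experiments, so there is no spread between replicates. The IBH1-GFP sample is titled with IBL1, a related protein, and the GFP library is called Col-0 in its protocol. Here both are named after their line.

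A single peak list, which names no sample, is read here as the peaks of IBH1-GFP. It held 2944 nuclear peaks, each with a score from the peak caller and a summit height in stacked fragments. Scores began at 50.01, and heights ran from 14 to 100 fragments. The tagged gene IBH1 (AT2G43060) held the summit with both the highest score, 1045.71, and the greatest height. The IBH1-GFP line also carries the IBH1 sequence in its p35S construct. Whether reads from that construct add to this summit was not tested. The list gives no value of the GFP library at any locus, and the depth of both libraries is unknown.

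IBH1 is an atypical helix-loop-helix protein that restrains cell elongation and is thought to act by binding other helix-loop-helix proteins rather than DNA. tRNAs carry amino acids to the ribosome, and their short genes are copied by RNA polymerase III from promoter elements that lie within the gene. snRNAs form the core of the spliceosome, the machine that removes introns. In plants the genes for U1, U2, U4 and U5 are copied by RNA polymerase II and those for U6 by RNA polymerase III, in both cases from an upstream sequence element and a TATA box. Both kinds of gene occur in many near-identical copies. The treatment of reads that fit several copies is not stated in the labels.

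Summits were found at 63 of the 707 loci (8.91%, exact 95% binomial interval 6.92% to 11.3%, counting error only). The tRNA loci held 56 summits among 625 (8.96%, 6.84% to 11.5%). The snRNA loci held 7 among 82 (8.54%, 3.50% to 16.8%). Each of these loci had a peak of its own, so that 63 different peaks, 2.14% of the nuclear peaks, lay at tRNA or snRNA genes. By the same rule, 7.35% of all nuclear loci and 8.7% of protein-coding genes (2388 of 27444) held a summit, so by this count alone the members did not stand apart. The median tRNA locus, however, is 73 bp long, and the median protein-coding gene 2078 bp.

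Comparisons at the length of a tRNA locus gave lower background values. The median snRNA locus is longer, at 153 bp, so for snRNA loci the length is not matched. A window of 473 bp, the median tRNA gene with its reach on both sides, held a summit at 2.35% of the ends of protein-coding genes (1288 of 54888, interval 2.22% to 2.48%). Such a window held one at 1.17% of all nuclear bases. Loci for small nucleolar RNAs (snoRNAs), which guide the modification of ribosomal RNA, are also short, with a median of 92 bp, and held summits at 0.697% (2 of 287, interval 0.085% to 2.49%). Loci for microRNAs (miRNAs), which direct the silencing of messenger RNAs, held them at 0.92% (3 of 326, 0.190% to 2.67%). Loci for long noncoding RNAs held summits at 4.51% (157 of 3480, 3.85% to 5.25%), with a longer median of 343 bp. The interval of the tRNA share lay above those of gene ends, snoRNA, miRNA and long noncoding RNA loci. Loci of the biotypes ncRNA and misc_RNA held summits at 6.33% (14 of 221, 3.51% to 10.4%) and 5.31% (27 of 508, 3.53% to 7.64%). Their median lengths were greater, at 760 and 662.5 bp, and their intervals overlapped those of tRNA and snRNA loci. The interval of the snRNA share lay above those of gene ends, snoRNA and miRNA loci but overlapped that of long noncoding RNA loci. With 1 list and no replicate, none of these differences could be tested against the spread between experiments.

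**Figure D1:**
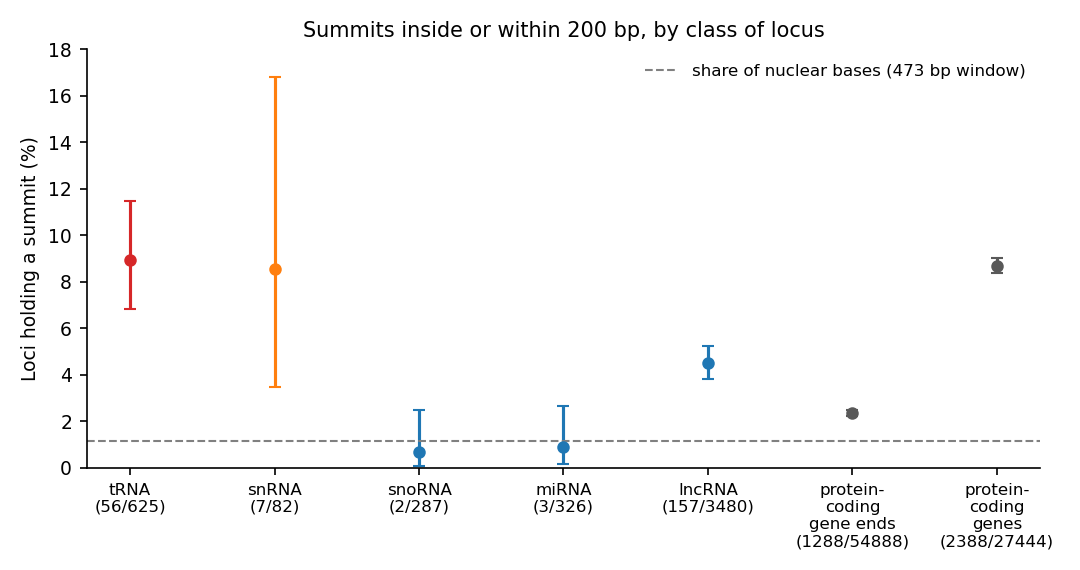
Share of loci holding a summit, in percent, for each class (points) with its exact 95% binomial interval (bars) and its count below the axis. The dashed line marks the share of nuclear bases, 1.17%. tRNA and snRNA loci stand near 9%, snoRNA and miRNA loci below 1%, and protein-coding genes, which are far longer, at 8.7%.

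Most of these summits lay on the RNA genes or at their edges. Of the 63 loci, 33 had the summit inside their bounds, 26 more had it within 50 bp, 1 at 51 to 100 bp and 3 at 101 to 200 bp. The median distance of the summit from the middle of the locus was 37.5 bp (quartiles 24.75 and 54.25 bp). The peak covered the whole locus in all 63 cases, but these peaks had a median width of 899 bp. For such short loci near a summit, coverage thus follows largely from the rule. Counted per length of DNA, tRNA loci had 59.0 nearest summits per 100 kb inside the gene and 38.4 within 50 bp of it. At 51 to 100 bp the density was 1.6 per 100 kb, and at 101 to 200 bp it was 2.4. It then stayed between 1.44 and 2.72 per 100 kb in each class out to 5000 bp. For snRNA loci it was 33.6 inside, 24.4 within 50 bp and 0 from 51 to 200 bp, where the counts are small.

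The same windows moved along the chromosome showed how local this was. Moved by 1000 bp towards lower or higher positions, the tRNA windows held summits at 0.64% and 1.6% (4 and 10 of 625). Moved by 2000 bp the shares were 0.96% and 1.44%, and moved by 5000 bp they were 1.12% and 0.96%. The snRNA windows moved by 1000 bp held 1 and 0 summits among 82, and 0 of 82 allows a share of up to 3.66%. Moved by 2000 bp they again held 1 and 0, and by 5000 bp 2 in each direction (2.44%, interval 0.297% to 8.53%). The intervals of the moved snRNA windows all overlapped that of the unmoved ones, 3.50% to 16.8%. At each distance the moved tRNA windows were thus near the 1.17% of all nuclear bases, and the unmoved ones were above it.

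**Figure D2:**
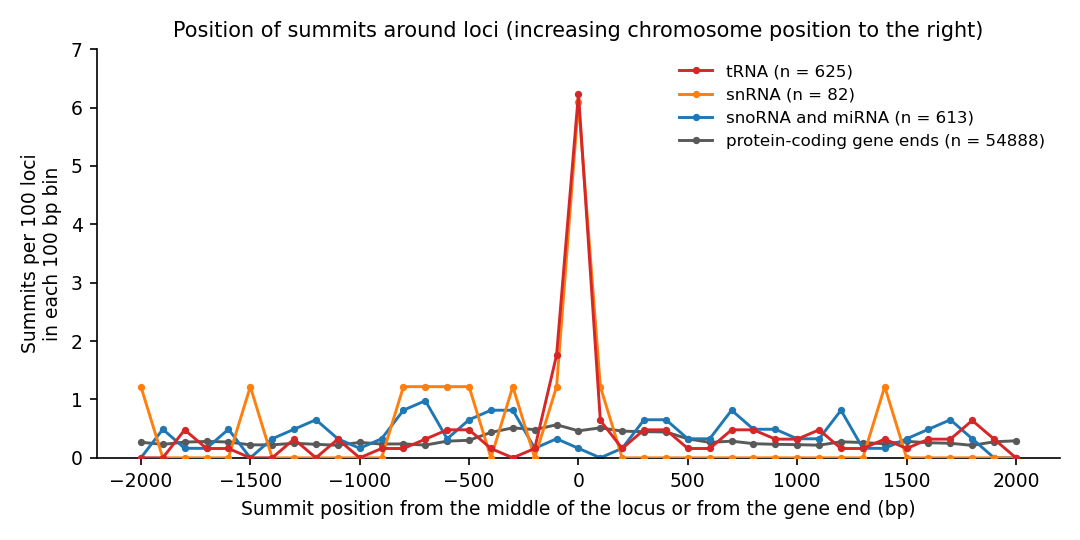
Number of summits per 100 loci in bins of 100 bp, by position of the summit from the middle of the locus or from the gene end (in bp). tRNA and snRNA loci reach 6.24 and 6.10 in the central bin, while snoRNA and miRNA loci, at 0.163 there, and protein-coding gene ends, at 0.463, show no such centre.

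Among the tRNA loci, the highest score belonged to the tRNA-Leu locus AT4G13265, which held a summit at chromosome 4, 7731027 (TAIR9), scoring 265.62 at a height of 37. Its peak ranked 28 among the 2944 nuclear peaks. The bounds of the nearest protein-coding gene, AT4G13270, were 162 bp from the summit. The tRNA-Ile locus AT5G56365 followed, with a summit inside the gene at chromosome 5, 22828180, a score of 256.58 (rank 37) and a height of 55. That summit was 118 bp from PSL4, which encodes a subunit of the glucosidase that trims glycoproteins. Both stood apart from the other tRNA loci, of which the next, the tRNA-Gly locus AT5G43535 (chromosome 5, 17495555), scored 161.12 with a height of 50.

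The tRNA-Glu locus AT4G18725 has genes of the ribosome and of the brassinosteroid pathway nearby. Its summit at chromosome 4, 10302068, scored 151.08, was 39 fragments high and lay inside the tRNA gene. From there it was 95 bp to RPL16B, a gene for a protein of the large ribosomal subunit. It was 840 bp to BIN2, the GSK3-like kinase that represses brassinosteroid responses, and likewise 840 bp to AT4G18720.

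A pair of tRNA loci with high scores lay close together on chromosome 4, in a window with few protein-coding genes. The tRNA-Gln locus AT4G03405 had its summit 3 bp outside its bounds at 1501604, scoring 151.66 at a height of 50. That summit was inside the protein-coding gene AT4G03410 and 5 bp from DFL2, a gene of the GH3 family of hormone-conjugating enzymes. The tRNA-Phe locus AT4G03435 had its summit at 1520757, 27 bp outside its bounds, scoring 138.13 at a height of 46. It lay 194 bp from EMB2770, which encodes a splicing factor. Both summits were high in score for the list, whose upper quartile outside tRNA and snRNA loci was 99.3.

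The other tRNA loci among the 15 highest scores were spread over chromosomes 1, 2 and 3. On chromosome 2, the summits of the tRNA-Val locus AT2G03790, the tRNA-Arg locus AT2G24380 and the tRNA-Ala locus AT2G22580 scored 131.89, 131.47 and 129.89. The first lay 45 bp outside the locus, the second inside it and the last 5 bp outside. That of AT2G24380 also lay inside the protein-coding gene AT2G24390, and that of AT2G22580 was 172 bp from NIC1, a nicotinamidase gene. On chromosome 3, the tRNA-Ala locus AT3G28695 scored 120.67 at a height of 36, its summit being 7 bp away. On chromosome 1, the tRNA-Pro locus AT1G28990 scored 157.44 with a height of 29, and its summit was 34 bp away.

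A few loci were within reach of a summit that lay outside them and inside a protein-coding gene. The tRNA-Pro locus AT1G68770 was 114 bp from its summit (score 134.45, height 23), which lay inside NUDX1, a Nudix hydrolase gene that the locus overlaps, and 377 bp from IDA, the peptide gene of floral organ abscission. The tRNA-Ser locus AT1G59570 was 161 bp from a summit (115.66, height 29) inside MPK2, a MAP kinase gene. The tRNA-Val locus AT4G11985 was 169 bp from one (54.21, height 29) inside NUDX14. These are the 3 members just inside the limit of 200 bp. Just outside it were the tRNA-Pro locus AT1G28980 at 216 bp, the tRNA-Phe locus AT5G25625 at 248 bp (score 55.96) and the tRNA-Gly locus AT3G58165 at 255 bp (118.93). The summit nearest to AT1G28980 was that already counted for AT1G28990.

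Height and score did not rank the loci alike. The tallest summit at a member, 57 fragments, lay inside the tRNA-Ser locus AT4G24565 at chromosome 4, 12686209, but its score was only 58.46, rank 2236, in a peak 2805 bp wide. It was 250 bp from DIC2, a mitochondrial dicarboxylate carrier gene. The summit inside the tRNA-His locus AT4G02055 (chromosome 4, 901235) was 52 fragments high with a score of 70.77. It lay within PRL, the gene for the replication helicase subunit MCM7 (PROLIFERA).

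Over all 63 member summits the median score was 73.3 (quartiles 62.7 and 113), close to the 72.8 of the other 2881 nuclear summits (58.9 and 99.3). Scores ran from 50.46 to 265.62 at members, and 33.3% were 100 or more (21 of 63, interval 22.0% to 46.3%), against 24.6% of the other summits (23.0% to 26.2%). The median height was 33 fragments (quartiles 27.5 and 38.5) at members and 27 (22 and 34) at the other summits. Among the other summits, those outside protein-coding genes had a median height of 31 and those inside them 25. The median peak width was 899 bp at members and 884 bp at the other summits. Peaks at tRNA and snRNA genes thus overlapped the rest of the list widely in score, height and width.

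**Figure D3:**
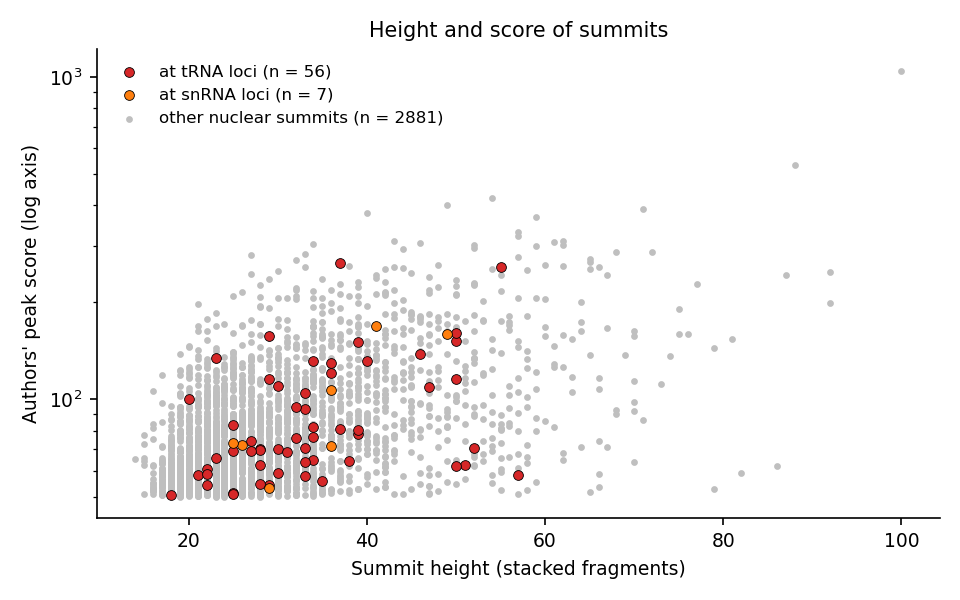
Authors' peak score (log axis) against summit height in stacked fragments for the 56 summits at tRNA loci, the 7 at snRNA loci and the 2881 other nuclear summits, 1 point a summit. Member summits lie within the cloud of the others, with 2 tRNA loci above a score of 250.

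The tRNA genes carry the names of 20 amino acids in the table, and loci for 18 of them held a summit (for 2 loci no amino acid is given). Ala, Pro and Ser had the most, with 6 each of 33, 66 and 64 loci. For Ala this is 18.2% (interval 6.98% to 35.5%), with scores of 62.69 to 129.89. Asp and Lys had 4 each, of 26 and 30 loci, with scores of 51.12 to 94.42 and 59.3 to 110.15. His had 2 of 10 (20.0%), and both summits were tall, at 50 and 52 fragments. Phe and Ile had 3 each, of 16 and 22 loci. The initiator and elongator tRNA-Met genes, not told apart here, had 2 of 24. None was found at 16 Asn and 15 Cys loci, which allows shares of up to 18.8% and 20.0%. With so few loci a kind, the intervals of 19 of the 20 amino acids took in the overall tRNA share of 8.96%. The exception was Tyr, with 1 of 75 (1.33%, interval 0.0338% to 7.21%), the locus AT2G36860 with a score of 82.09 (named after its value was seen).

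**Figure D4:**
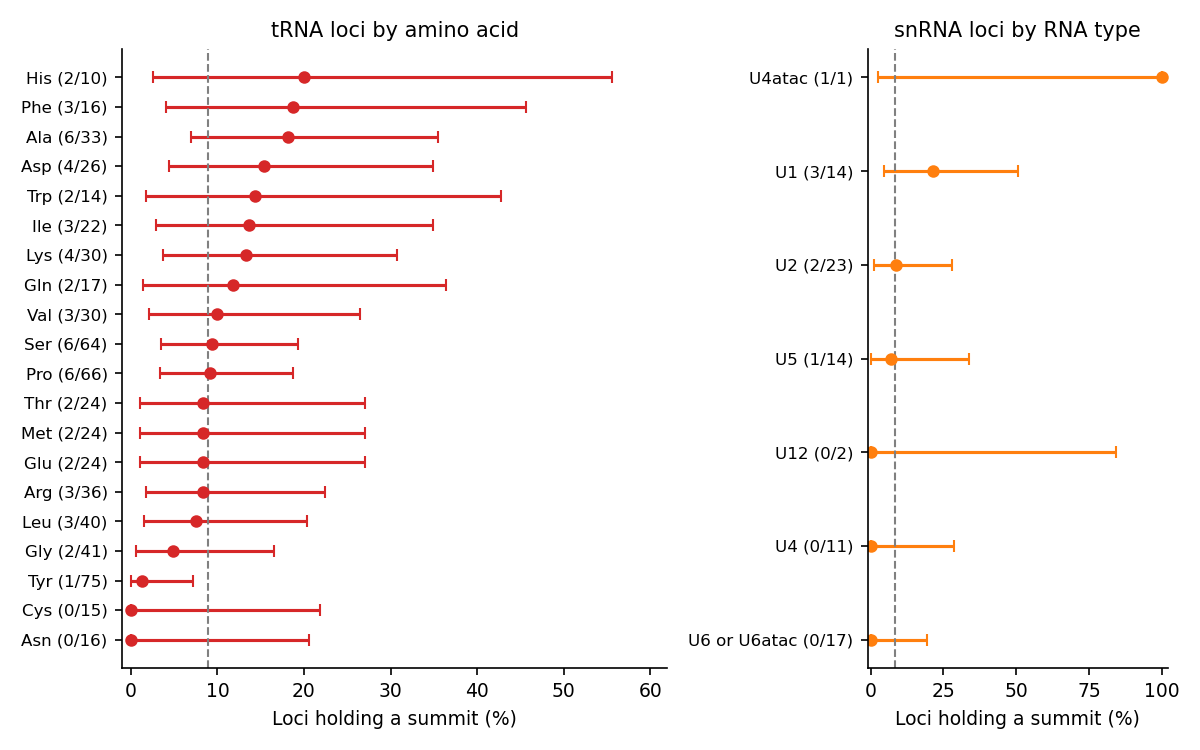
Share of tRNA loci by amino acid (left) and of snRNA loci by RNA type (right) that hold a summit, in percent, with exact 95% binomial intervals and counts. Dashed lines mark the shares of all tRNA loci, 8.96%, and all snRNA loci, 8.54%. Of the tRNA kinds, only Tyr has an interval wholly below the line.

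Most Tyr loci lie in a tandem array. Runs of 6 or more members at most 5000 bp apart held 129 loci in all. The largest, on chromosome 1, has 81 loci, 54 for Tyr and 27 for Ser, over 39685 bp, and no peak of the list overlapped it. A second run on chromosome 1 has 26 tRNA-Pro loci over 19345 bp, of which 2 held a summit. These are AT1G28990, the last locus of the run, and AT1G28930, with the lowest score of all members, 50.46, and a height of 18 (named after its values were seen). The other runs, of 6 and 9 Pro loci and of 7 mixed loci, held none. In all, 2 of 129 loci in arrays held a summit (1.55%, interval 0.188% to 5.49%), against 61 of 578 outside them (10.6%, 8.17% to 13.3%). The first interval counts neighbouring loci of a run as independent, and both summits lay in the same run. With so few runs, arrays cannot be set apart from other loci when counted by run.

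Outside the arrays, Ser loci held summits in 6 of 36 cases (16.7%, 6.37% to 32.8%), Pro loci in 4 of 24 (16.7%, 4.74% to 37.4%) and Tyr loci in 1 of 19 (5.26%, 0.133% to 26.0%). Within the arrays the counts were 0 of 28 for Ser, 2 of 42 for Pro and 0 of 56 for Tyr, which allows up to 10.7% for Ser and 5.36% for Tyr. Outside the arrays the intervals of all 3 kinds took in the share of all tRNA loci outside arrays, 10.9% (54 of 496, 8.29% to 14.0%). They also took in the overall tRNA share of 8.96%.

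Clustering was also counted by a shorter distance, which takes in many of the array loci. With another member within 1000 bp, 3 of 166 loci held a summit (1.81%, interval 0.374% to 5.19%), against 60 of 541 single loci (11.1%, 8.57% to 14.0%). For tRNA loci alone the counts were 2 of 150 clustered (1.33%, 0.162% to 4.73%) and 54 of 475 single (11.4%, 8.66% to 14.6%). Taken as runs, 2 of 27 clusters held a summit (7.41%, 0.91% to 24.3%), too few to set apart from single loci. For snRNA loci, 1 of 16 clustered and 6 of 66 single ones held a summit. Clustered snoRNA and miRNA loci (2 of 265) and single ones (3 of 348) were both under 1%.

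Of the snRNA loci, those for U1, which pairs with the start of introns, held summits in 3 of 14 cases. U1.2 (AT4G07120) had the highest score of the snRNA genes, 169.11 (rank 164), with a height of 41 and the summit inside it at chromosome 4, 12225713. The locus overlaps the protein-coding gene AT4G23420, in which the summit lay, and TET5, a tetraspanin gene, is 205 bp away. U1.8 (AT5G04455) had its summit 47 bp away at chromosome 5, 9832530, scoring 73.26 at a height of 25. The locus U1.12p (AT4G07145) had its summit 10 bp away at chromosome 4, 12298881, scoring 53.21 at a height of 29. U1 peaks thus ranged from among the stronger ones to near the lowest score of the list.

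The single locus for U4atac (AT4G06375), an RNA of the minor spliceosome, which removes a rare class of introns, held a summit at chromosome 4, 9096417. It scored 158.98 (rank 206) with a height of 49, the tallest at an snRNA gene. The gene lies between AT4G16060 and AT4G16070, 64 and 117 bp from the summit. U5.7 (AT4G04185), 1 of 14 loci for the RNA that aligns exons for joining, held a summit at chromosome 4, 1114537 (score 106.72, height 36). U2, which pairs with the branch site of introns, had 2 of 23 loci with a summit. These were U2.5 (AT5G09585) at chromosome 5, 2975163 (71.6, height 36), 273 bp from MTHSC70-2, a mitochondrial chaperone gene, and U2.3 (AT3G57765) at chromosome 3, 21397676 (72.36, height 26). The summit of AT3G57765 lay inside the protein-coding gene AT3G57770, which the locus overlaps. The 23 U2 loci include 4 symbols, U2.3, U2.4, U2.6 and U2.7, that the table gives to 2 locus tags each. The other U2.3 locus, AT3G09005, held none. AT3G57765 is 871 bp long and AT3G09005 195 bp.

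No summit was found at the 11 loci for U4, the 2 for U12 or the 17 for U6 and U6atac, the snRNAs of RNA polymerase III. A count of 0 of 17 allows a share of up to 17.6%, and the other snRNA loci held summits at 10.8% (7 of 65, interval 4.44% to 20.9%), so a difference between these snRNA groups was not detectable at these numbers. The tRNA genes, also copied by RNA polymerase III, held summits at 8.96%.

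The loci were also counted by chromosome. On chromosome 4, 16 of 77 tRNA loci held a summit (20.8%, interval 12.4% to 31.5%), and without that chromosome the tRNA share was 7.30% (40 of 548). By chromosome, the shares were 5.04% on chromosome 1, 7.37% on chromosome 2, 9.78% on chromosome 3, 20.8% on chromosome 4 and 9.76% on chromosome 5. The interval of chromosome 4 overlapped those of chromosomes 2, 3 and 5 and lay above that of chromosome 1, which was 2.63% to 8.64%. Chromosome 1 holds the largest arrays, and outside them its share was 8.0% (10 of 125, interval 3.90% to 14.2%), which overlapped that of chromosome 4. Gene ends also had the highest share on chromosome 4, 3.43%, against 1.74% to 2.78% on the others. Of the 7 snRNA loci with a summit, 4 were on chromosome 4 (4 of 10 there) and none on chromosome 1 (0 of 22) or chromosome 2 (0 of 4). On each chromosome the lower bound of the tRNA interval was above the share of nuclear bases, which was 0.986% to 1.60%. It was also above the share of gene ends on that chromosome, on each of the 5. The intervals themselves overlapped on chromosome 2, at 3.01% to 14.6% for tRNA loci and 2.44% to 3.15% for gene ends. On the other chromosomes they did not.

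The distance to gene-poor windows was compared next. Complete windows of 500000 bp with fewer than 60 protein-coding genes (36 of 235) are called gene-poor here. tRNA loci within 2 Mb of such a window held summits at 16.3% (14 of 86, interval 9.20% to 25.8%), against 4.69% of gene ends there. At 2 to 5 Mb the values were 7.88% for tRNA loci (16 of 203, 4.57% to 12.5%) and 2.66% for gene ends, and beyond 5 Mb 7.34% (24 of 327, 4.76% to 10.7%) and 1.54%. Of the 9 tRNA loci inside gene-poor windows, 2 held a summit. The 3 tRNA intervals outside those windows overlapped. Without the arrays the tRNA shares were 19.2% within 2 Mb, 14.6% at 2 to 5 Mb and 7.55% beyond. Loci of chromosome 4 were compared with the rest at like distances. The counts were 7 of 17 on chromosome 4 against 7 of 69 on the other chromosomes within 2 Mb, and 4 of 15 against 12 of 188 at 2 to 5 Mb. The intervals of each pair overlapped. These counts take in the arrays, none of which is on chromosome 4. At 2 to 5 Mb, the 188 loci include the chromosome 1 runs of 26 and 81 loci, which held 2 and 0 summits. Beyond 5 Mb the shares were close, at 7.14% on chromosome 4 (3 of 42) and 7.37% on the others (21 of 285).

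**Figure D5:**
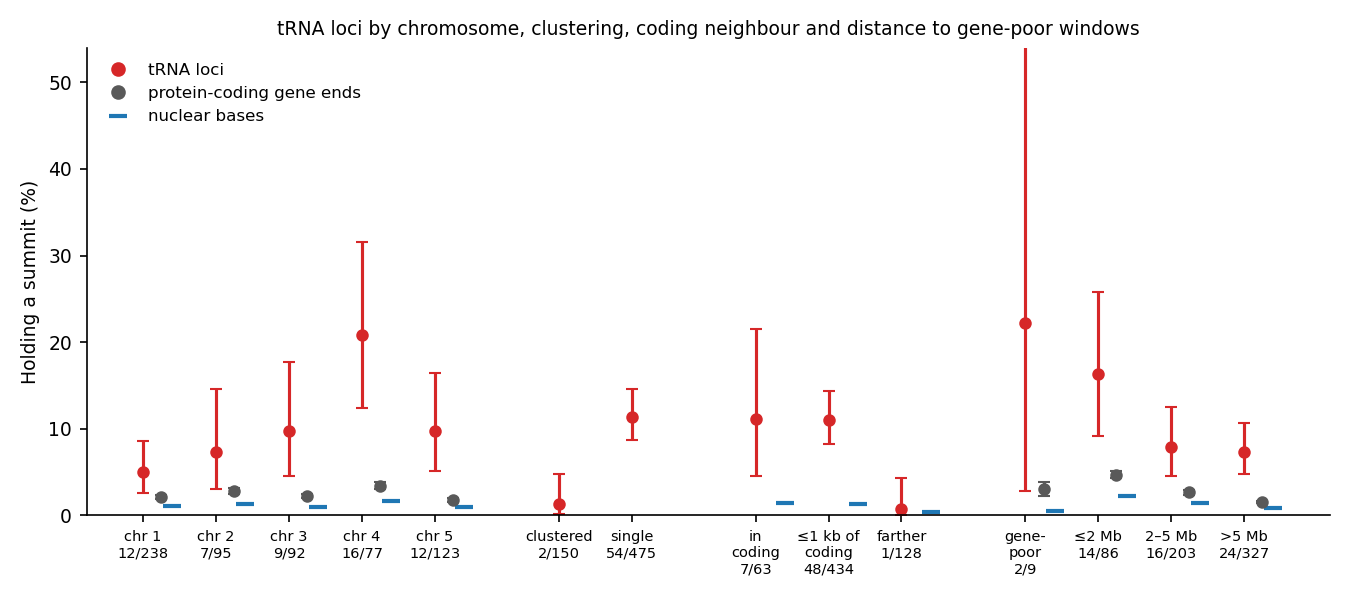
Share of tRNA loci holding a summit (red, with exact 95% intervals and counts below), protein-coding gene ends (grey) and nuclear bases (blue dashes), in percent. Groups are chromosomes, clustered and single loci, place against protein-coding genes, and distance to gene-poor windows. Among the chromosomes, chromosome 4 is highest at 20.8%. Loci inside gene-poor windows are at 22.2%, from only 2 of 9. Clustered loci are at 1.33% and single ones at 11.4%, and loci farther than 1 kb from a coding gene are at 0.781%.

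Members were also compared by their place against protein-coding genes. Of tRNA loci that overlap such a gene, 7 of 63 held a summit (11.1%, interval 4.59% to 21.6%), and of those within 1000 bp of one, 48 of 434 (11.1%, 8.27% to 14.4%). Of those farther away, 1 of 128 did (0.781%, 0.0198% to 4.28%), but 97 of these lie in the arrays, and outside them the count was 1 of 31. The shares of nuclear bases in the same 3 classes were 1.44%, 1.36% and 0.439%. For snoRNA and miRNA loci they were 0.578%, 1.08% and 0.617%. Of snRNA loci, 2 of 37 that overlap a gene, 5 of 34 within 1000 bp and 0 of 11 farther away held a summit.

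The summits at members lay mostly between protein-coding genes. Of the 63, 11 were inside one (17.5%, interval 9.05% to 29.1%), against 1976 of the other 2881 (68.6%, 66.9% to 70.3%). A member summit lies by rule within 200 bp of its locus. Of the 707 members, 100 overlap a protein-coding gene and the rest do not, so the place of the loci largely sets the first share. Of all 957 nuclear summits outside protein-coding genes, 52 were at tRNA or snRNA loci (5.43%, 4.08% to 7.06%). Of the 676 that were also within 1000 bp of such a gene, 50 were (7.40%, 5.54% to 9.64%).

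Protein-coding genes that make or use these RNAs were examined by the same rule, through names in the table. Only genes whose names matched are in the lists, so the lists are partial and genes named otherwise were not examined. Of 11 genes matched for aminoacyl-tRNA synthetases, which load tRNAs with amino acids, and the tRNA ligase, 2 held a summit. The share of all protein-coding genes was 8.7%. These were ALATS (AT1G50200), for alanine, scoring 64.7 at a height of 24, and HRS1 (AT3G46100), for histidine, scoring 74.25 at a height of 22. None of the 3 genes matched for RNA polymerase III and its factors (NRPC1, NRPC2 and TFIIIA) held one. Nor did any of the 8 matched for proteins of the small nuclear ribonucleoproteins. The nearest miss was U2A', which binds U2 RNA, at 393 bp. With 3 to 11 genes a list, these shares cannot be told from the background.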

How the data were processed

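The submitters' processing notes name CASAVA 1.8.2, Bowtie, MACS and the genome build TAIR9. Settings, and whether peaks were called against the control library, are not stated there. The authors deposited a peak score for each peak and, for each summit, a signal, its height in stacked fragments. Both are the authors' own values for 1 list and only rank peaks within it. Locus bounds, names and amino acids came from the RefSeq gene table, assembly TAIR10.1, which gives no strand or exons. Summits of one build were placed among loci of the other without conversion, and the summit with the highest score lay inside IBH1. Printed coordinates are the authors', counted from 1. The 47 organellar tRNA loci and the 1 organellar peak were left out, and locus sequences were not used here.

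Shares carry exact (Clopper-Pearson) 95% intervals (scipy 1.17.1), which cover counting error only, and a count of 0 carries a limit of 3 counts. With 1 list there is no spread between replicates, and no test was run. The planned scan of promoter letters was not run. Pathway genes were matched by symbol or synonym, not by description. The overlap code was checked on simulated data. Loci named are the 15 with the highest scores, the 3 with the tallest summits, each snRNA locus with a summit, the 3 on either side of 200 bp, the tRNA locus near BIN2 and any summit serving 3 or more loci (there was none), with each pathway gene holding a summit. Array runs were defined after seeing the data. Members and lists were chosen with earlier results of these data known.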

Additional observations from a re-analysis of the deposited data

Results flagged for a closer look

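Outside the nuclear chromosomes the peak list had a single entry, which entered no comparison and so falls outside the main counts. It covered bases 120757 to 121457 of the mitochondrial genome (TAIR9). Its score was 55.96, and its summit reached 32 fragments. It was not placed against the organellar tRNA loci. The list gives no value of the GFP library there.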

How the results depend on the processing

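Shares are given for all members, tRNA loci and gene ends in this order. With summits inside the bounds only they were 4.67%, 4.48% and 0.337%, with 33 summits at members. With a reach of 1000 bp they were 13.3%, 13.3% and 7.2%. With peak scores of 100 or more they were 2.97%, 2.88% and 0.669%, with 21 summits, and at or above the median score 4.53%, 4.48% and 1.28%, with 32. For gene ends alone the share also moved to 1.41% with a reach of 100 bp, 4.85% with 500 bp, 2.17% with peak midpoints, 4.49% with any peak overlap and 2.15% without chromosome 4. In each of these settings the tRNA share was above that of gene ends and the ratio was smallest at 1000 bp. Of the 23 named loci with a summit, 12 held one with summits inside the bounds only, 20 with a reach of 100 bp, 16 at scores of 100 or more, and 17 both at or above the median score and with peak midpoints. With midpoints, AT4G13265, AT4G06375 (U4atac), AT1G28990, AT4G03435, AT1G68770 and AT4G24565 held none. The snRNA share moved by less than its interval in every setting run, but it did not always stand above gene ends. Without chromosome 4 it was 4.17% (3 of 72, interval 0.868% to 11.7%), and that interval took in the 2.15% of gene ends. With a reach of 1000 bp it was 13.4% (11 of 82, 6.89% to 22.7%), which took in the 7.2% of gene ends.

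Without loci that overlap protein-coding genes, without gene-poor windows, with peaks within 500 bp merged and with clusters counted once, the share of all members stayed within its interval, at 8.63% to 10.9%. Without the array runs, and for gene ends without those near members, both settings chosen after seeing the data, it was 10.6% for members and 2.27% for gene ends. With clusters taken at 500 or 5000 bp, clustered loci were at 1.97% and 1.72% and single loci at 10.8% and 12.4%. Counts of summits were not computed with clusters counted once, nor gene ends for settings that concern members alone. No paired analysis was possible because there is 1 library a group. The depth is unknown, so a locus without a summit cannot be called unbound. Whether the treatment of reads from near-identical copies bears on the counts in arrays was not tested.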
